A study of Mus musculus with 32 samples.

Results

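The genes Dbp, Tef and Hlf encode the PAR bZIP transcription factors, and Nfil3 encodes the repressor NFIL3 (also called E4BP4), a bZIP factor that binds the same DNA sites. All 4 genes were taken by symbol from the 23279 genes measured in hindlimb muscle of C57BL/6 mice, each through a single probe set (Entrez gene 13170 for Dbp, 21685 for Tef, 217082 for Hlf and 18030 for Nfil3). The mice were young (8 weeks) or aged (80 weeks), carried no transgene or treatment named in the labels, and lived for 2 weeks under 12 h of light and 12 h of dark with food and water freely available. Muscle was collected at 16 sampling times, 3 h apart, during 2 days. Times are given as ZT, the hours since the light came on: 0, 3, 6, 9, 12, 15, 18 and 21. Each combination of age and time was measured on 2 arrays (repeats), 32 in all, and each array held the pooled RNA of 3 mice. The spread between arrays is therefore that between pools, which may also differ in sampling day. The labels do not say whether the 2 repeats came from different days, or which hindlimb muscles were taken.

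PAR bZIP proteins, named for a domain rich in proline and acidic residues, activate genes that carry a D-box element. NFIL3 lacks that domain and represses through the same element. In the circadian clock, CLOCK and BMAL1 drive Dbp through E-box elements, while the nuclear receptors REV-ERB and ROR act on Nfil3 through their own response element. The balance of these activators and their repressor is known to time D-box genes such as the Period genes, and in liver and kidney the PAR bZIP factors drive enzymes of detoxification.

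Because the 4 transcripts divided into a late-day and a late-night pair of phases, the sequences just before their starts are shown, 250 bases each, 5′ to 3′ on the gene's own strand, from RefSeq (GRCm38.p6). Capitals mark matches on either strand to E-box CACGTG, E′-box CACGTT, D-box TTATGTAA or TTACGTAA, ROR/REV-ERB core TAGGTCA or TGGGTCA, and the cyclic AMP response element TGACGTCA. Tef has 2 annotated starts in the table used.
Dbp: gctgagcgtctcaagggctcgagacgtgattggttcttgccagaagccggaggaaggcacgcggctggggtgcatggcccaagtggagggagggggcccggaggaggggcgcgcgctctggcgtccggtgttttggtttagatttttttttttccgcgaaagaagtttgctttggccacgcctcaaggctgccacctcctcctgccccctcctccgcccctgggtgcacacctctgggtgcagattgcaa
Tef (first start): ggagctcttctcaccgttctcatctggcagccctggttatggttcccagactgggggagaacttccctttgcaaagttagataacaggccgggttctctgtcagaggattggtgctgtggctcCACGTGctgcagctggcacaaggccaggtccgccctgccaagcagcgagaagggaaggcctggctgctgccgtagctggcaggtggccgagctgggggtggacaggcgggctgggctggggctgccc
Tef (second start): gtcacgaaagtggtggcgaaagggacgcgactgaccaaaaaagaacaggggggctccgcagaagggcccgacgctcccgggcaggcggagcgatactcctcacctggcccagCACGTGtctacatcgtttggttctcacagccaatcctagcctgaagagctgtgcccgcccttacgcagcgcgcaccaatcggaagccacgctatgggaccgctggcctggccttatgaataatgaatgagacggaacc
Hlf: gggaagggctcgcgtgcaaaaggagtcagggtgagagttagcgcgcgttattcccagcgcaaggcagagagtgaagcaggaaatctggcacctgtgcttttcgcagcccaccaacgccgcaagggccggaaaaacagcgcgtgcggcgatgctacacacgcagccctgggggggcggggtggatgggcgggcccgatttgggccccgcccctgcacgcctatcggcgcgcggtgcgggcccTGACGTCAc
Nfil3: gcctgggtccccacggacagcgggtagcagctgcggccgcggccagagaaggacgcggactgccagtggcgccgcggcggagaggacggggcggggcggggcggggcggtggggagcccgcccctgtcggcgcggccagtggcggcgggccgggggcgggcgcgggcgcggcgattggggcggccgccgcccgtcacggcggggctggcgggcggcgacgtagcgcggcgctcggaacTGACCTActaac
These windows lie at chr7:45704997-45705246 (plus strand) for Dbp, chr15:81802423-81802672 and chr15:81811164-81811413 (plus strand) for Tef, chr11:90390918-90391167 (minus strand) for Hlf and chr13:52981040-52981289 (minus strand) for Nfil3. Each Tef window held an E-box, with its first base 127 and 138 bases before the start, and 6.02% of all 32851 windows of this length in the table held this motif. The Hlf window held the cyclic AMP response element 9 bases before the start (1.55% of all windows). The Nfil3 window held the core TAGGTCA on the reverse strand, printed as TGACCTA, 12 bases before the start (2.23% of all windows). The Dbp window matched none of these letters, and none of the 5 windows held a D-box (0.819% and 0.113% of all windows for its spellings). No match overlapped another, and a match is a description of sequence.

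Before the members' values, the arrays themselves need a word. Skeletal fibre markers were high on every array, with list means from 12.8 to 13.1 on the log2 scale. The mean of 18 hepatocyte markers was at most 6.78 on 26 arrays and at least 7.33 on the other 6, namely young ZT 0 and ZT 3 repeat 1, both young ZT 6 arrays, young ZT 18 repeat 2 and aged ZT 6 repeat 1. Alb, the serum albumin gene, ranged from 10.8 to 12.6 on these 6 arrays. Values without them are given beside the peaks, the gaps, the young rhythms and the age differences, and since the tissue was measured in bulk, fewer cells of a type and less RNA per cell cannot be told apart.

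Dbp, the founding member of the family, had the widest daily swing of the 4 genes. In young muscle its repeats stood at 8.51 and 8.72 at ZT 0, 8.63 and 9.42 at ZT 3, 9.98 and 10.11 at ZT 6, and 10.36 and 10.96 at ZT 9. In the dark phase they stood at 10.55 and 11.03 at ZT 12, 10.01 and 10.40 at ZT 15, 9.63 and 9.99 at ZT 18, and 9.31 and 9.38 at ZT 21. All young arrays at ZT 9 and ZT 12 lay above all young arrays at ZT 0, ZT 3 and ZT 21. In aged muscle Dbp stood at 8.32 and 8.84 at ZT 0, 9.02 and 9.52 at ZT 3, 10.32 and 10.33 at ZT 6, and 10.54 and 10.68 at ZT 9. It went on at 10.57 and 10.70 at ZT 12, 10.24 and 9.81 at ZT 15, 9.27 and 9.44 at ZT 18, and 8.59 and 8.79 at ZT 21. The aged arrays were highest from ZT 6 to ZT 12 and were low again at ZT 21, with both arrays below those of young muscle. Between the lowest and the highest ZT the group means of Dbp differed 4.52-fold in young muscle and 4.16-fold in aged.

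Tef, which encodes thyrotroph embryonic factor, followed the same course over a narrower range. In young muscle its repeats stood at 7.95 and 8.19 at ZT 0, 8.10 and 8.30 at ZT 3, 8.26 and 8.42 at ZT 6, and 8.65 and 8.75 at ZT 9. They went on at 8.49 and 8.69 at ZT 12, 8.25 and 8.56 at ZT 15, 8.30 and 8.47 at ZT 18, and 8.24 and 8.20 at ZT 21. The ZT 9 arrays were both above those of ZT 0, ZT 3, ZT 6 and ZT 21, whereas the arrays from ZT 15 and ZT 18 overlapped those of ZT 6. In aged muscle Tef stood at 8.12 and 8.17 at ZT 0, 8.05 and 8.31 at ZT 3, 8.35 and 8.33 at ZT 6, and 8.41 and 8.63 at ZT 9. It then stood at 8.42 and 8.65 at ZT 12, 8.18 and 8.14 at ZT 15, 8.15 and 8.27 at ZT 18, and 7.75 and 7.98 at ZT 21. The aged ZT 21 arrays were lower than all other aged arrays. Its group means differed 1.55-fold between the extreme ZT in young muscle and 1.59-fold in aged.

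Hlf, which encodes hepatic leukemia factor, was high late in the day too, with 1 pair of aged repeats far apart. In young muscle it stood at 6.972 and 6.996 at ZT 0, 6.87 and 7.04 at ZT 3, 7.30 and 7.33 at ZT 6, and 7.55 and 7.88 at ZT 9. It then stood at 7.59 and 7.55 at ZT 12, 7.13 and 7.59 at ZT 15, 7.18 and 7.50 at ZT 18, and 6.93 and 7.19 at ZT 21. The young ZT 9 and ZT 12 arrays lay above those from ZT 21 through ZT 6. In aged muscle Hlf stood at 6.74 and 6.99 at ZT 0, 6.78 and 6.61 at ZT 3, 7.21 and 7.04 at ZT 6, and 7.60 and 7.35 at ZT 9. It then stood at 7.60 and 7.39 at ZT 12, 7.62 and 6.66 at ZT 15, 7.12 and 7.15 at ZT 18, and 6.72 and 7.10 at ZT 21. The aged ZT 15 repeats held both the highest aged value and a value near the lowest, a gap of 0.96 that was the largest between repeats for any of the 4 genes. That low array, repeat 2, also had the highest macrophage marker mean of all aged arrays (7.58, against 6.69 in its repeat), whose part in the Hlf value was not tested.

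Nfil3 ran the other way, low in the late day and high in the late night. In young muscle it stood at 8.12 and 8.29 at ZT 0, 8.00 and 7.70 at ZT 3, 7.29 and 7.33 at ZT 6, and 7.05 and 6.87 at ZT 9. It then stood at 7.22 and 7.17 at ZT 12, 7.95 and 8.10 at ZT 15, 8.08 and 8.22 at ZT 18, and 8.48 and 8.40 at ZT 21. The young arrays from ZT 6 to ZT 12 all lay below those of every other ZT, so that the day divided into a low and a high level without overlap. In aged muscle Nfil3 stood at 8.14 and 7.73 at ZT 0, 7.45 and 7.18 at ZT 3, 6.92 and 7.15 at ZT 6, and 7.39 and 6.75 at ZT 9. It then stood at 7.34 and 7.38 at ZT 12, 7.62 and 8.09 at ZT 15, 8.32 and 8.00 at ZT 18, and 8.18 and 8.31 at ZT 21. The low level of aged muscle ran from ZT 3 to ZT 12, and its arrays all lay below those from ZT 15 through ZT 0. Its group means differed 2.78-fold in young muscle and 2.31-fold in aged.

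**Figure D1:**
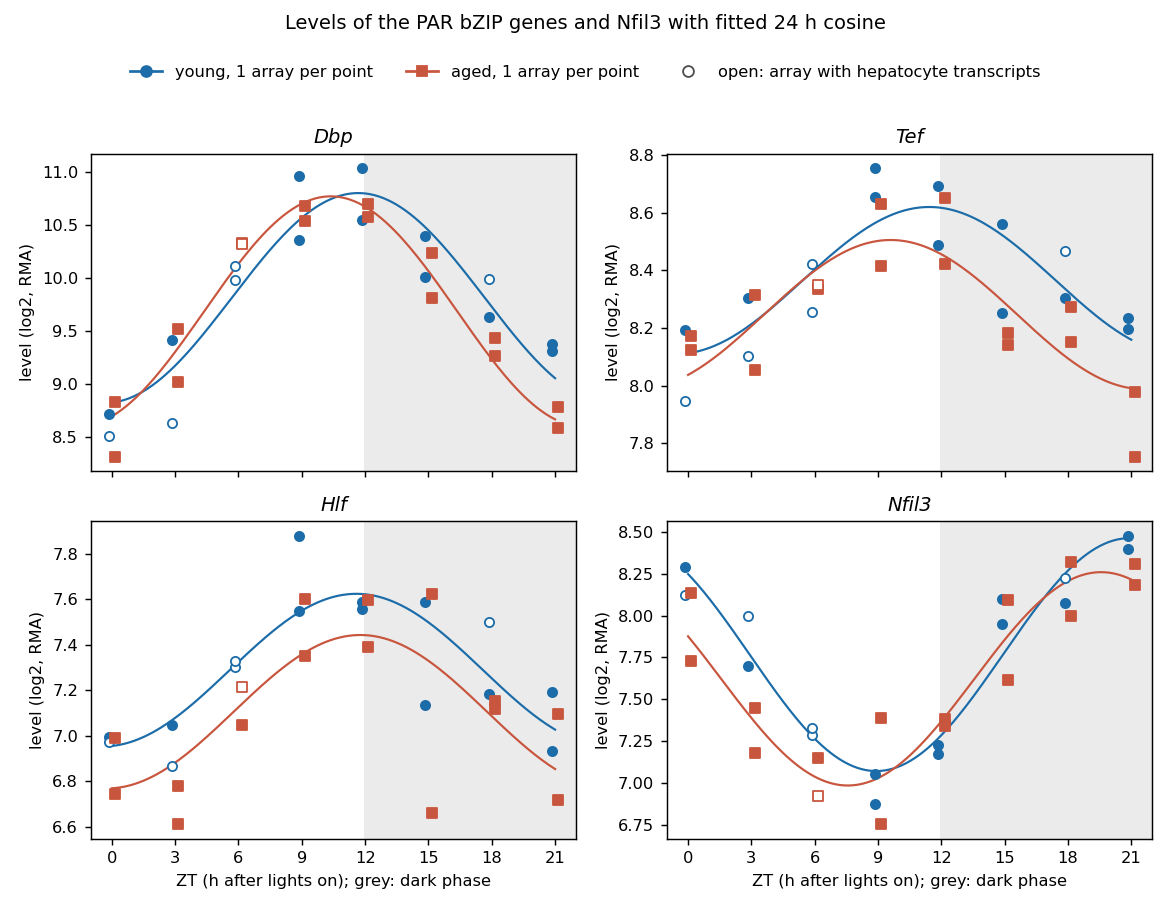
Levels of Dbp, Tef, Hlf and Nfil3 (log2, y axis, with a range of its own in each panel) by ZT (x axis, h), with 1 point per array, circles for young and squares for aged, and the fitted 24 h cosine as a line. The PAR bZIP genes are high around ZT 9 to ZT 12 and Nfil3 is low there, and open symbols mark the 6 arrays with hepatocyte transcripts.

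Ordered by group mean, Dbp in young muscle ran from ZT 12 at 10.79 through ZT 9, 15, 6, 18, 21 and 3 to ZT 0 at 8.62. No gap between neighbours in that order exceeded 0.53, the 95% limit of a difference of 2 group means for this gene. In aged muscle the order was ZT 12, 9, 6, 15, 18, 3, 21 and 0, and the gaps between ZT 15 and ZT 18 and between ZT 3 and ZT 21 exceeded that limit. For Nfil3 the order in young was ZT 21, 0, 18, 15, 3, 6, 12 and 9, with a gap beyond the limit of 0.40 between ZT 3 and ZT 6. In aged it was ZT 21, 18, 0, 15, 12, 3, 9 and 6, with such a gap between ZT 15 and ZT 12. Tef ran in young from ZT 9 through ZT 12, 15, 18, 6, 21 and 3 to ZT 0, and in aged from ZT 12 through ZT 9, 6, 18, 3, 15 and 0 to ZT 21. Hlf ran in young from ZT 9 through ZT 12, 15, 18, 6, 21 and 0 to ZT 3, and in aged from ZT 12 through ZT 9, 15, 18, 6, 21 and 0 to ZT 3. No neighbours of Tef or Hlf differed beyond their limits of 0.29 and 0.47.

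Between successive ZT the largest upward step of Dbp was from ZT 3 to ZT 6, with 1.02 ± 0.25 (SE) in young and 1.06 ± 0.25 in aged muscle. That of Nfil3 was from ZT 12 to ZT 15, with 0.82 ± 0.19 in young and 0.49 ± 0.19 in aged, and its aged step from ZT 0 to ZT 3 was -0.62 ± 0.19. Of the 64 steps of the 4 genes, 0 passed limma's test after adjustment over all genes and 16 (25%) had an unadjusted p under 0.05, 9 of them in Dbp and 4 in Nfil3, against 4.33% of all steps of all genes. Over all genes the share called was 0.0387% for the young step to ZT 15, 0.00859% for the young step to ZT 9 and the aged step to ZT 15, 0.0043% for the young step to ZT 3 and 0% for the other 12 steps.

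A 24 h cosine fitted to each age used all times at once. The amplitude, the distance from mean to peak on the log2 scale, was 0.99 ± 0.089 (SE, n = 16) for Dbp in young and 1.08 ± 0.089 in aged muscle, a 3.93-fold and a 4.50-fold change from trough to peak. It ranked 14 among all 23279 genes in young and 3 in aged muscle. Nfil3 had an amplitude of 0.70 ± 0.063 in young (2.62-fold, rank 43) and 0.64 ± 0.063 in aged (2.42-fold, rank 30). Hlf had amplitudes of 0.34 ± 0.075 in both young and aged (1.59-fold and 1.60-fold). Tef had amplitudes of 0.26 ± 0.050 in both (1.42-fold and 1.43-fold), against a median over all genes of 0.090 in young and 0.079 in aged.

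All 4 genes were rhythmic with ages together by limma's moderated F test at an adjusted p under 0.05, where 3.6% of all genes were called. The limma adjusted p was 1.81e-11 for Dbp, 8.93e-11 for Nfil3, 7.09e-05 for Tef and 0.000177 for Hlf. In young muscle 4 of the 4 passed (1.92% of all genes), with adjusted p = 5.03e-08 for Dbp, 5.58e-08 for Nfil3, 0.00905 for Tef and 0.0313 for Hlf. In aged muscle 3 of the 4 passed (0.696% of all genes), with adjusted p = 1.66e-08 for Dbp, 7.12e-07 for Nfil3 and 0.0171 for Tef, while Hlf had adjusted p = 0.0583. Hlf in aged muscle passed among genes above the median level (limma adjusted p = 0.0249), with array weights (0.00443) and with a trended, robust variance (0.0388), which made 4 of 4, and with ZT as a factor or each age fitted alone 2 of 4 passed. Markers of other cells passed the test with ages together as well, namely 3 of 8 for slow fibres (median amplitude 0.51), 3 of 10 for macrophages (0.21) and 4 of 10 for endothelium (0.11), but 0 of 18 for hepatocytes, and their part in the rhythms of the 4 genes was not tested. Since the genes are known clock genes and earlier results of these data were known, the calls describe them and are not independent evidence.

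The calls for Dbp and Nfil3 held in both ages in every alternative run, apart from Nfil3 in aged muscle with repeat 1 alone (limma adjusted p = 0.0536). Those for Tef and Hlf held less often within 1 age. With either repeat alone, Tef was called in neither age and Hlf was not called in young muscle. With ages together both genes passed in all 32 fits that left out 1 array (limma adjusted p at most 0.000242 and 0.000623), and Tef in young muscle did too (at most 0.0401). With ages together Tef and Hlf each lost the call in a fit to a single repeat. Without the 6 arrays with hepatocyte transcripts the young amplitudes were 0.24 for Tef (limma adjusted p = 0.0645) and 0.33 for Hlf (adjusted p = 0.127), close to those over all arrays. The call for Hlf in young muscle was lost on leaving out any 1 of 10 of the 32 arrays (limma adjusted p up to 0.0797), and that for Tef in aged muscle on leaving out any 1 of 4 (up to 0.0859). Without aged ZT 15 repeat 2 the aged amplitude of Hlf was 0.41 and passed the test (limma adjusted p = 0.00098).

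Each repeat was also fitted alone. Repeat 1 gave Dbp an amplitude of 0.94 in young and 1.19 in aged muscle, and repeat 2 gave 1.04 and 0.99. For Nfil3 the values were 0.66 and 0.60 in repeat 1 and 0.74 and 0.68 in repeat 2. For Tef they were 0.24 and 0.26 in repeat 1 and 0.27 and 0.26 in repeat 2. Hlf in aged muscle had 0.52 in repeat 1 and 0.15 in repeat 2, against 0.32 and 0.36 in young.

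**Figure D2:**
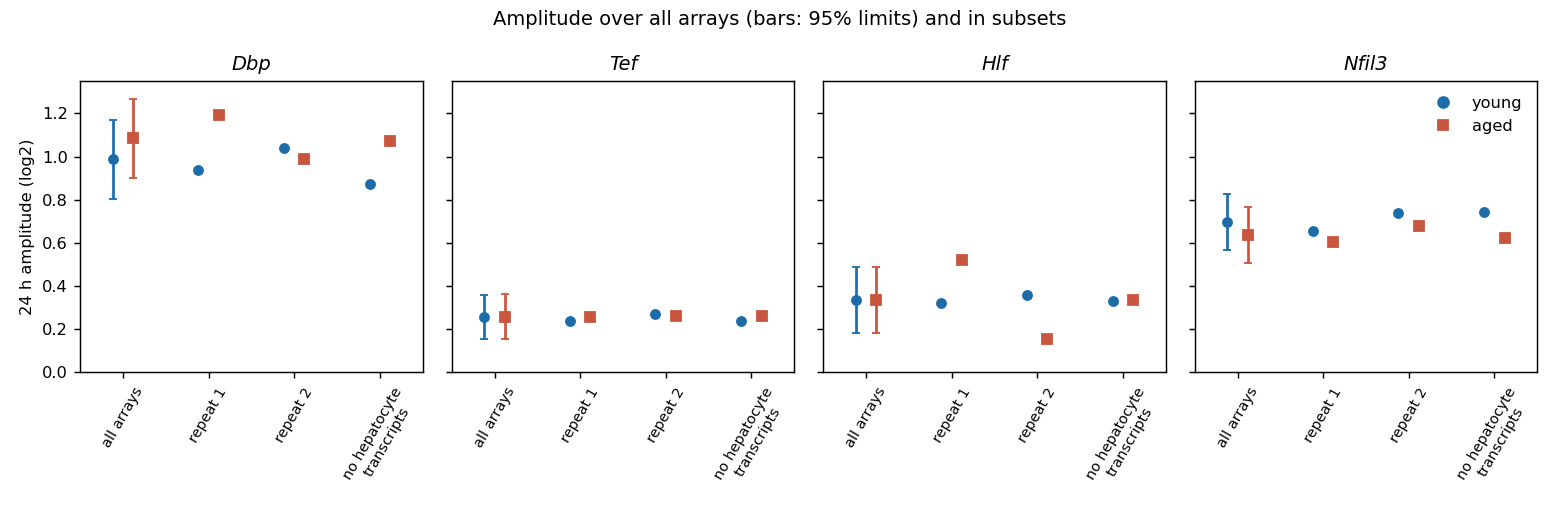
Fitted 24 h amplitude (log2, y axis) of the 4 genes over all arrays with 95% limits, in each repeat alone and without the 6 arrays with hepatocyte transcripts (x axis), circles for young and squares for aged. Dbp stays between 0.87 and 1.19 and Tef between 0.24 and 0.27, whereas Hlf in aged muscle spans 0.15 to 0.52.

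The PAR bZIP genes peaked at the end of the light phase and Nfil3 late in the dark phase. The fitted peak of Dbp was at ZT 11.7 ± 0.346 (SE) in young muscle, against ZT 10.4 ± 0.315 in aged. That of Tef was at ZT 11.4 ± 0.752 in young muscle, against ZT 9.60 ± 0.741 in aged. Hlf had its peak at ZT 11.6 ± 0.856 in young muscle and at ZT 11.8 ± 0.851 in aged. Nfil3 had its peak at ZT 20.9 ± 0.348 in young muscle and at ZT 19.6 ± 0.380 in aged. Without the 6 arrays with hepatocyte transcripts the young peaks were at ZT 11.1 for Dbp, ZT 9.60 for Tef, ZT 10.3 for Hlf and ZT 20.5 for Nfil3. The aged peaks were then at ZT 10.5, ZT 9.50, ZT 11.9 and ZT 19.6, so that the young and aged peaks of Tef nearly coincided.

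The gap between the peaks of Dbp and Nfil3 was shorter than 12 h in both ages, with 12 h outside its 95% limits. In young muscle the peak of Nfil3 followed that of Dbp by 9.24 h (95% limits 8.42 to 10.1 h, with the covariance of the genes' residuals taken into account), and in aged muscle by 9.20 h (8.37 to 10.0 h). The difference of the gap between ages was -0.045 h (95% limits -1.21 to 1.12 h). Without the 6 arrays with hepatocyte transcripts the gap was 9.42 h in young and 9.15 h in aged, and single repeats gave gaps from 9.19 to 9.33 h. At ZT 15 both genes stood above the mean of their age, Dbp by 0.39 in young and 0.34 in aged muscle and Nfil3 by 0.26 and 0.23. At ZT 3 in aged muscle both stood below it, Dbp at -0.42 and Nfil3 at -0.31. Nfil3 peaked after Tef by 9.49 h in young (95% limits 8.00 to 11.0 h) and 9.97 h in aged muscle (8.50 to 11.4 h). It peaked after Hlf by 9.33 h (7.52 to 11.1 h) and 7.79 h (5.91 to 9.68 h). Without the 6 arrays the young gaps were 10.9 h for Tef (8.88 to 13.0 h) and 10.2 h for Hlf (7.40 to 13.0 h). These limits included 12 h, as did some limits for Tef and Hlf in single repeats.

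**Figure D3:**
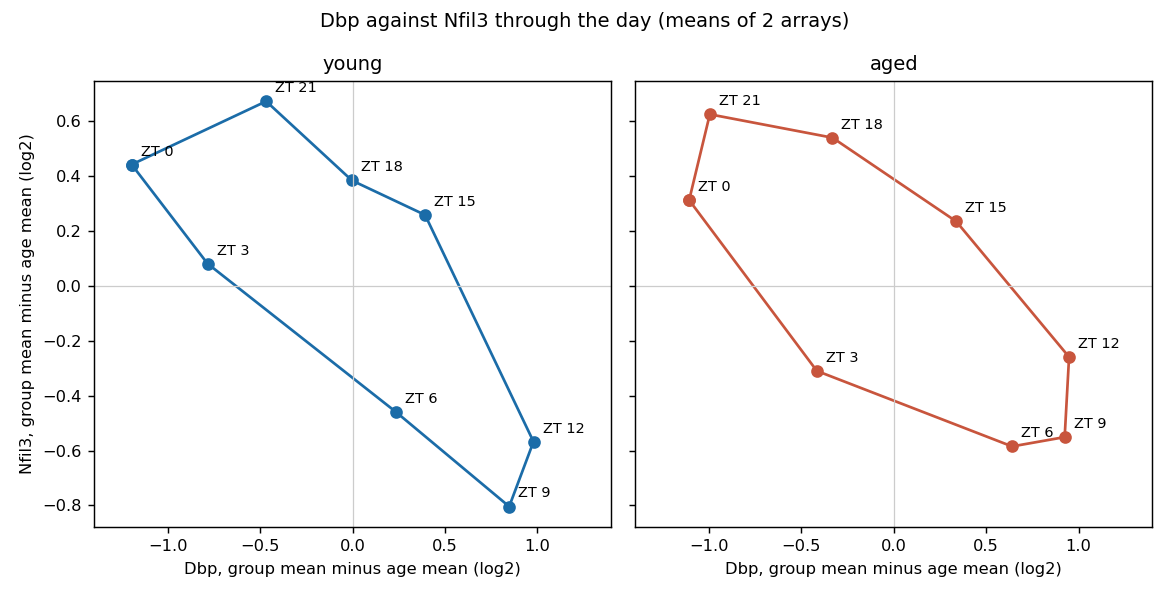
Group means of Nfil3 (y axis, log2, minus the mean of its age) against those of Dbp (x axis, log2, minus the mean of its age) through the day, young at left and aged at right. A gap of 12 h would give a line, while the 8 ZT trace an open loop in both ages (fitted gaps 9.24 h and 9.20 h).

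Among the PAR bZIP genes the peaks were close in young muscle. Tef peaked -0.25 h from Dbp (95% limits -1.50 to 1.00 h) and Hlf -0.091 h from Dbp (-1.71 to 1.52 h). In aged muscle Tef peaked -0.77 h from Dbp (-2.02 to 0.47 h) and Hlf 1.41 h after it (-0.23 to 3.04 h). The aged gap from Tef to Hlf was 2.18 h (0.25 to 4.10 h), and its difference from the young gap was 2.02 h with 95% limits of -0.65 to 4.68 h. In repeat 1 alone this aged gap was 2.01 h (-0.039 to 4.07 h), and in repeat 2 alone 2.33 h (-3.69 to 8.36 h). The rhythm of Hlf in aged muscle was itself not called (limma adjusted p = 0.0583). Without the 6 arrays with hepatocyte transcripts the young gap from Dbp to Tef was -1.52 h (-3.42 to 0.38 h). That from Dbp to Hlf in young muscle was then -0.78 h (-3.36 to 1.79 h). The aged gaps were then -0.96 h from Dbp to Tef, 1.46 h from Dbp to Hlf and 2.42 h from Tef to Hlf (0.21 to 4.63 h).

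**Figure D4:**
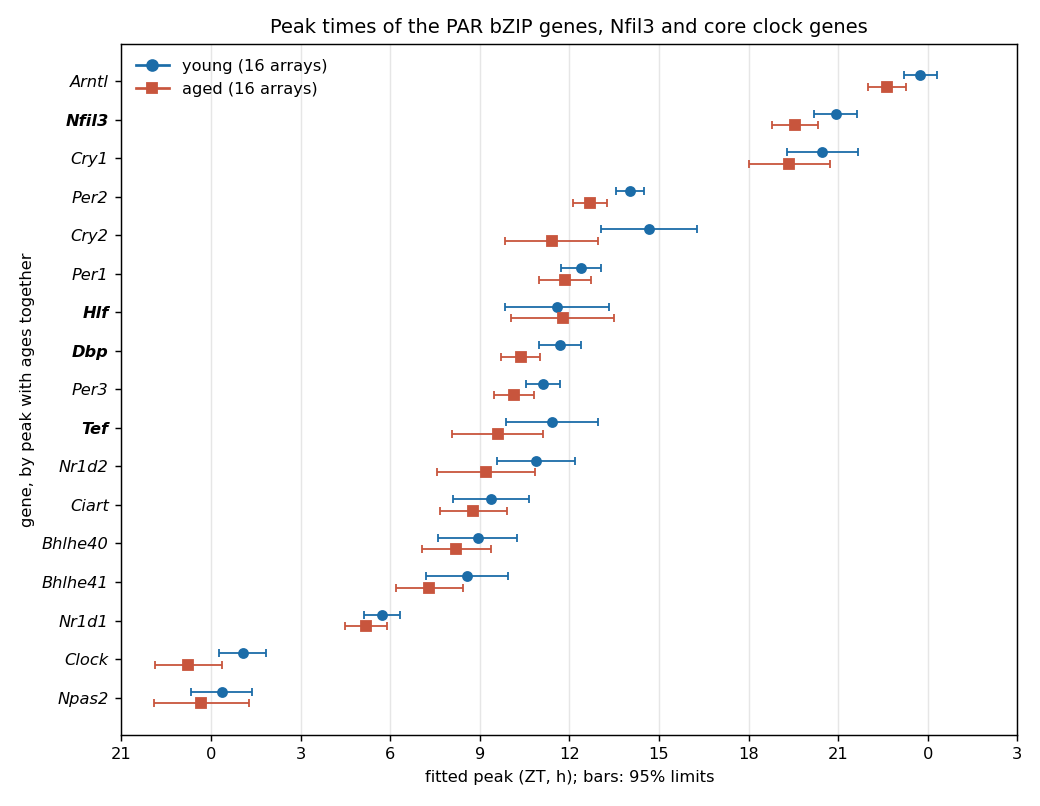
Fitted peak times (x axis, ZT in h, wrapping at 24) with 95% limits of the 4 genes (bold) and the 13 core clock genes that were rhythmic with ages together, circles for young and squares for aged. Dbp, Tef and Hlf lie beside Per3 and Per1 at the end of the light phase, and Nfil3 lies beside Cry1, ahead of Arntl.

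Fitted peaks of Dbp and Nfil3 were earlier in aged than in young muscle, but the test of the rhythm did not separate the ages. The direction was not particular to them, since all 13 rhythmic core clock genes also had an earlier fitted peak in aged muscle. The shift was -1.31 h for Dbp (95% limits -2.26 to -0.35 h), -1.35 h for Nfil3 (-2.40 to -0.30 h), -1.83 h for Tef (-3.98 to 0.33 h) and 0.19 h for Hlf (-2.27 to 2.65 h). When limma tested the difference of the rhythms, 0 of the 4 genes passed (0% of all genes, with 1293 at an unadjusted p under 0.05). The unadjusted p was 0.0249 for Dbp and 0.0387 for Nfil3, and the limma adjusted p was 0.856 and 0.884. Without the 6 arrays with hepatocyte transcripts, 5 of which were young, the shifts were -0.66 h for Dbp (-1.85 to 0.52 h), -0.94 h for Nfil3 (-2.19 to 0.32 h), -0.096 h for Tef and 1.59 h for Hlf.

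The 95% limits of each amplitude difference between the ages included 0. The aged minus young amplitude was 0.096 for Dbp (95% limits -0.16 to 0.35), -0.058 for Nfil3 (-0.24 to 0.12), 0.0036 for Tef (-0.14 to 0.15) and 0.0017 for Hlf (-0.22 to 0.22). Of the 14 core clock genes measured, 9 of the 13 rhythmic ones had the smaller fitted amplitude in aged muscle, as had 1 of the 4 genes here, Nfil3. The median amplitude over all genes was 0.090 in young and 0.079 in aged muscle, and 4 genes are too few for a contrast of these counts. The sign turned with the repeat for 3 of the 4 genes: in repeat 1 and in repeat 2 alone the difference was 0.25 and -0.052 for Dbp, 0.20 and -0.20 for Hlf and 0.019 and -0.012 for Tef, while it was -0.051 and -0.060 for Nfil3.

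A 12 h component was not found in the 4 genes. Its amplitude was 0.15 for Dbp, 0.13 for Hlf, 0.045 for Tef and 0.041 for Nfil3, limma's adjusted p was 0.999 for each, and 0 had an unadjusted p under 0.05 (the lowest was 0.0539, for Dbp). Over all genes 0.00859% passed this test.

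Averaged over the day, each of the 4 genes had a lower mean in aged muscle, and 0 passed limma's test of the age difference (background over all genes: 9.67% higher with age, 7.51% lower). Hlf had 7.29 ± 0.29 (SD, n = 16) in young and 7.10 ± 0.34 in aged, a difference of -0.18 ± 0.069 (SE; limma adjusted p = 0.0695), and its group mean was lower in aged at all 8 ZT. The difference was -0.12 ± 0.049 for Tef (adjusted p = 0.104), -0.14 ± 0.071 for Nfil3 (adjusted p = 0.176) and -0.13 ± 0.095 for Dbp (adjusted p = 0.408). Tef and Hlf had an unadjusted p under 0.05 (0.0241 and 0.0136), as had 29.2% of all genes, and the median difference over all genes was -0.0085. Tef passed the threshold without the 6 arrays with hepatocyte transcripts (-0.17, limma adjusted p = 0.0489), and Hlf without aged ZT 15 repeat 1 (-0.22, adjusted p = 0.0114), while in repeat 1 alone the difference of Hlf was -0.018 (adjusted p = 0.922) and in repeat 2 alone -0.35 (adjusted p = 0.0466). The difference of Dbp was -0.016 in repeat 1 alone, -0.24 in repeat 2 alone and -0.24 without the 6 arrays, and that of Nfil3 was -0.10, -0.19 and -0.088, none past the threshold. Without the 6 arrays the difference of Hlf was -0.17 and did not pass the threshold. Cell type markers moved with age as well: 3 of 10 macrophage markers were higher in aged muscle, and 4 of 10 skeletal fibre, 5 of 8 slow fibre, 7 of 10 endothelial and 3 of 18 hepatocyte markers were lower. Of 6 adipocyte markers 0 passed, with a median difference of 0.72 and list means from 7.004 to 9.67 in young and 6.96 to 10.1 in aged muscle. The macrophage mean ranged from 6.38 to 6.91 in young and 6.34 to 7.58 in aged muscle, and the slow fibre mean from 8.01 to 9.97 and 7.05 to 9.75. The endothelial mean ranged from 7.82 to 8.32 in young and 7.76 to 8.07 in aged, and the part of these markers in the levels of the 4 genes was not tested.

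By time of day the differences of Dbp, Tef and Nfil3 took both signs, with the positive values near or below their SE. For Tef the difference was 0.078 ± 0.14 (SE) at ZT 0 and -0.35 ± 0.14 at ZT 21. Dbp was 0.24 ± 0.25 and 0.28 ± 0.25 (SE) above young at ZT 3 and ZT 6, and its difference was -0.46 ± 0.25 at ZT 18 and -0.65 ± 0.25 at ZT 21. For Nfil3 the difference was -0.54 ± 0.19 at ZT 3 and 0.16 ± 0.19 at ZT 12. Of the 32 differences at single ZT 0 passed limma's test over all genes (lowest adjusted p = 0.344), and 3 (9.38%) had an unadjusted p under 0.05, Dbp and Tef at ZT 21 and Nfil3 at ZT 3, against 9.06% of these differences over all genes. The share of all genes called was 0.0344% at ZT 0, 0.0473% at ZT 3, 0.125% at ZT 6, 0.228% at ZT 9, 0.133% at ZT 12, 0.043% at ZT 15, 0.0558% at ZT 18 and 0.116% at ZT 21. An age effect that varied with ZT was not called in any of the 4 (limma adjusted p = 1 for each, 0 at an unadjusted p under 0.05), nor in any gene (0% called, 771 at an unadjusted p under 0.05).

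**Figure D5:**
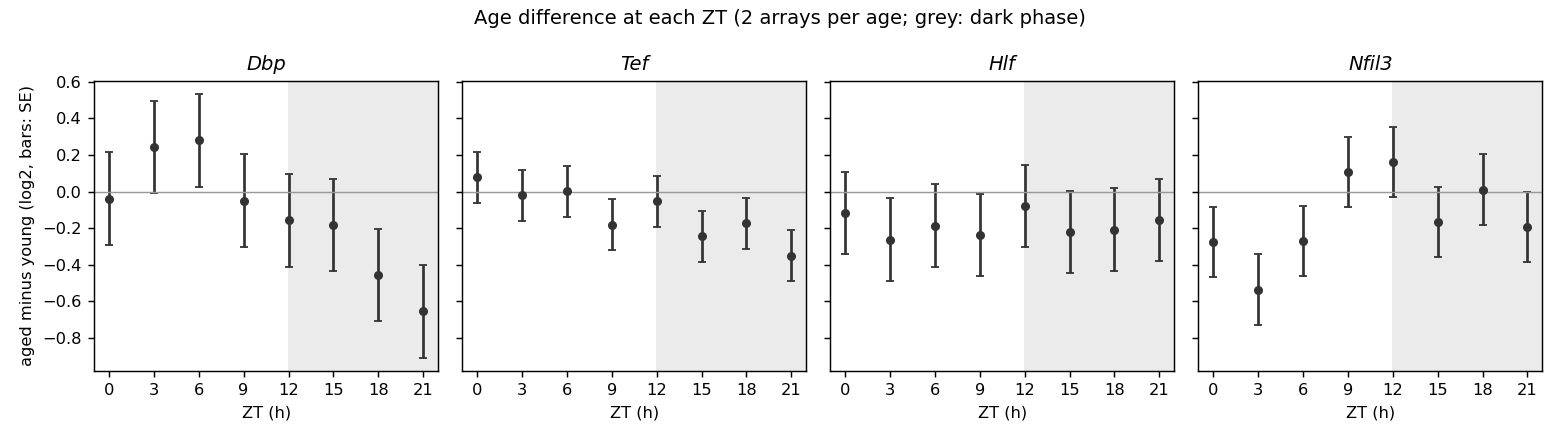
Aged minus young level (log2, y axis, bars are SE from the model of 16 groups) of the 4 genes at each ZT (x axis, h). Hlf lies below 0 at all 8 ZT, and Dbp runs from 0.28 at ZT 6 to -0.65 at ZT 21.

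Other genes of the pathway place these profiles in the clock. Of the 14 core clock genes measured, 13 passed the test of the rhythm in each age and in both ages combined, the exception being Rora (adjusted p = 0.196 with ages together by limma). Nr1d1, which encodes REV-ERBα, varied 5.82-fold with its peak at ZT 5.48, Per1 4.53-fold at ZT 12.2, Arntl, which encodes BMAL1, 4.36-fold at ZT 23.2, and Ciart, a clock repressor gene, 2.97-fold at ZT 9.07, all with ages together. The median amplitude of the 14 was 0.58, that of the 4 genes here 0.50 and that of all genes 0.064. With age 5 of the 14 rose and 1 fell (9.67% and 7.51% of all genes), and 0 of the 4 genes here passed. At those shares, 0 of 4 does not set these genes apart from all genes.

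Genes that are known to carry D-box elements peaked on either side of Dbp. Of 7 measured, 5 passed in each age and in both combined, and Rora and Rorb did not pass (adjusted p = 0.196 and 0.335 by limma). With ages together Per3 peaked at ZT 10.7, Per1 at ZT 12.2 and Per2 at ZT 13.4, against ZT 11.0 for Dbp, while Nr1d1 peaked earlier. Genes with a ROR/REV-ERB element, the class that Nfil3 belongs to, were rhythmic in 4 of 4 measured cases. They peaked at ZT 23.2 (Arntl), ZT 0.090 (Npas2), ZT 0.31 (Clock) and ZT 20.0 (Cry1), and Nfil3 with its peak at ZT 20.3 with ages together stood next to Cry1.

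Genes reported as PAR bZIP targets in other organs mostly did not pass the test of the rhythm. Of 10 listed 8 were measured, and 1 was rhythmic with ages together by limma (3.6% of all genes). In either age alone 0 passed (1.92% of all genes in young and 0.696% in aged). At those shares, 0 of 8 does not set these genes apart from all genes. The gene called with ages together was Pdxk, which encodes pyridoxal kinase, the enzyme that activates vitamin B6 (1.45-fold, peak at ZT 13.3, adjusted p = 0.00255). Ppara, Cyp7a1 and Nr1i3 had amplitudes of 0.18, 0.12 and 0.081 and did not pass, nor did Alas1, Cyp2b10, Cyp2a4 and Abcb1a. The median amplitude of the 8 was 0.078, against 0.064 over all genes. Mean levels of Cyp2a4 (3.86), Cyp7a1 (3.99), Cyp2b10 (5.09) and Nr1i3 (5.31) lay below the lowest array median of 5.98. Abcb1a, a drug efflux pump gene, was lower in aged muscle (log2 difference -0.17 ± 0.056, SE, limma adjusted p = 0.0315), as were 7.51% of all genes. The other 7 did not differ past the threshold.

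Of 6 genes of the C/EBP family, bZIP factors that bind related sites, 2 were rhythmic with ages together (3.6% of all genes). Cebpb varied 1.48-fold with its peak at ZT 15.4 (limma adjusted p = 0.00138), and Cebpd 1.37-fold with its peak at ZT 13.4 (adjusted p = 0.0180). Cebpb passed in young muscle (adjusted p = 0.00815, 1.92% of all genes called) and 0 of the 6 passed in aged (0.696% of all genes). At that share, 0 of 6 does not set them apart from all genes. Cebpa, Cebpg, Cebpe and Ddit3 did not pass. Ddit3, a stress-induced member, was lower in aged muscle by a log2 difference of -0.17 (limma adjusted p = 0.0404), as were 7.51% of all genes.

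The profiles most like each gene over the 32 arrays, after each age was centred, were found by Pearson's r over all genes, as a description. Dbp was most like Per3 (r = 0.94), Usp2 (0.89), Stk35 (0.88), Tef (0.87) and Pdp1 (0.86), and most opposite to Arntl (-0.92), Clock (-0.85), Wsb1 (-0.84), Npas2 (-0.84) and Tead4 (-0.83). Tef was most like Dbp (0.87), Per3 (0.87), Stk35 (0.80), Ciart (0.79) and Tcap (0.79), and most opposite to Arntl (-0.83), Wsb1 (-0.83), Sdc4 (-0.81), Clock (-0.80) and Plekhg1 (-0.78). Hlf was most like Dbp (0.80), Stk35 (0.79), Klf9 (0.79), Per1 (0.78) and Per3 (0.77), and most opposite to Plekhg1 (-0.77), Clock (-0.77), Prkcd (-0.77), Npas2 (-0.77) and Slc27a3 (-0.75). Per3 and Stk35 were among the 5 most alike genes for each of the PAR bZIP genes.

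Nfil3 kept other company. It was most like Ppp1r3c (0.90), which encodes a glycogen-targeting phosphatase subunit, Zbtb16 (0.88), Lrrc30 (0.87), Slc38a2 (0.86), an amino acid transporter gene, and Rnf122 (0.85). It was most opposite to Ky (-0.89), Bhlhe41 (-0.89), Jarid2 (-0.86), Ciart (-0.85) and Bhlhe40 (-0.82), of which Bhlhe40 and Bhlhe41 encode the DEC repressors of the clock. Its r with Dbp was -0.72, with Tef -0.70 and with Hlf -0.50, so that the PAR bZIP genes were not its closest opposites. The arrays share their ZT and their repeats, and the part of each in these values was not tested.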

How the data were processed

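Hindlimb muscle RNA of 32 pools was measured on GeneChip Mouse Gene 2.0 ST arrays. The authors deposited log2 expression levels made by RMA (background correction, quantile normalisation and probe summary) with R 3.2.2 and affy 1.44.1, per the submitters' processing notes. RMA shrinks differences of weakly expressed genes, and for the probe set definition and its genome build the answer is: not given in the sources used here. Precision is limited by the number of arrays.

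Probe sets were named through the platform annotation and the RefSeq table of GRCm38.p6, which left 23279 genes. For a symbol with several probe sets, that of highest mean level represented the gene, and no filter on level was used. Tests used limma 3.58.1 (R 4.3.3) over all genes and all 32 arrays. P-values were adjusted by Benjamini-Hochberg, and 0.05 was the threshold. They were a cosinor with a mean, cosine and sine of 24 h per age, a common cosinor, the difference of the rhythm, an added 12 h term, the age difference with ZT as a factor, and a model of 16 groups for single ZT and steps. Standard errors of amplitudes and peaks are delta-method approximations, with 95% limits from the t distribution. The functions were tested on simulated data. Limits of the peaks were checked there only for rhythms larger than those of Tef, Hlf and Nfil3. Limits of the gaps between peaks were not checked there, and no rhythm that differed between ages was simulated. The smallest root mean square difference of any 2 arrays was 0.236, and repeats differed by 0.263 to 0.382, so no array was taken for a copy of another.

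The members, the gene lists, the design and the alternatives were chosen with earlier results of these data known. The text names the 4 members, per list up to 4 genes of largest amplitude and those that did not pass, and per member the 5 most alike and 5 most opposite genes. P-values measure the spread between the pools measured here. Alternatives were an added filter on level, array weights, the replicate block, other models of ZT, a further normalisation, and left-out arrays. Por and Cyp2a5 of the lists were not analysed here.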

Additional observations from a re-analysis of the deposited data

How the results depend on the processing

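The 24 h rhythm of Dbp and of Nfil3 with ages together passed the threshold in all 42 alternatives, and the sign of the age difference was the same for each of the 4 genes in all 41. Of these 41, 32 left out 1 array. The filter on level, the replicate block and the trended, robust variance leave that estimate unchanged, so its sign was fixed there. Rhythmic members in young muscle were 2, not 4, without the arrays with hepatocyte transcripts and with ZT as a factor, and 2 to 4 with a repeat or an array left out. Rhythmic genes in young muscle (448) were 255 without the arrays with hepatocyte transcripts, 104 with ZT as a factor, 292 with each age fitted alone and 35 to 490 with a repeat or an array left out. Those in aged muscle (162) were 258 with array weights, 32 with ZT as a factor, 98 with each age alone and 8 to 181 with arrays left out, and those with ages together (837) were 309 with ZT as a factor and 150 to 917. The smallest counts come from fits to 1 repeat, with 16 arrays. Genes with a 12 h component (2) were 1 with array weights, without the arrays with hepatocyte transcripts and with the hepatocyte mean as covariate, and 0 to 3 with arrays left out. Members with an age difference (0) were 1 among genes above the median level (Hlf), with the replicate block (Tef), with array weights (Nfil3), without the arrays with hepatocyte transcripts (Tef) and after a further quantile normalisation (Tef), and 0 to 1 with arrays left out. The count of genes with an age difference (3998) was 1617 to 4431, that of a rhythm that differs with age 0 to 1 and that of an age difference by ZT 0 to 11 with arrays left out. The labels do not say what a repeat number stands for, and it was not taken to pair the arrays: deviations of young and aged arrays of the same ZT and number correlated at -0.028 to 0.13 over genes, above 0.1 in 2 of 8 pairs. With the replicate block Tef had limma adjusted p = 0.0442 for age, and it changed no other call of the 4 genes. Removing either repeat leaves no residual in the model of 16 groups, which was not run there. Except where values above show fewer arrays or genes, the cause of these moves was not tested. The sign of the peak shift was the same in all 41 alternatives for Dbp, Tef and Nfil3, whereas the shift of Hlf ranged from -0.42 to 1.59 h. The filter on level, the replicate block and the trended, robust variance leave the shift unchanged as well. Without the arrays with hepatocyte transcripts the shift of Tef was -0.096 h.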

Other observations

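The level of Dbp was higher in repeat 2 than in repeat 1 in 15 of the 16 groups, by 0.26 ± 0.077 (SE) on the log2 scale (limma adjusted p = 0.104), and that of Tef in 13 of 16, by 0.15 ± 0.043 (adjusted p = 0.0970). For Hlf the difference was 0.029 ± 0.076 and for Nfil3 -0.054 ± 0.064. Dbp and Tef differed between repeats in the same direction in 14 of 16 groups, Dbp and Hlf in 11, and Dbp and Nfil3 in 7. Over all genes 0.7% passed the test of the repeat, which was chosen after the values had been seen, and the labels do not say what a repeat number stands for.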
